A study of Mus musculus with 6 samples.

Results

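The T cell receptor alpha locus was examined in RNA-seq of naive CD8 T cells from mouse lymph nodes, as the 189 of 55450 annotated genes whose symbols name a V segment (Trav), a J segment (Traj) or the constant region (Trac) of the alpha chain. They comprise 128 Trav, 60 Traj and 1 Trac. The sorted cells lacked Ly6C and CXCR3 and came from WT (C57BL/6) mice and from Itgae-/- mice, called CD103KO, with 3 libraries in each group. Itgae encodes CD103, the integrin alpha E chain. No treatment is named for either group, and neither the age of the mice nor the type of the Itgae allele is stated in the labels. The labels do not say whether the replicates were separate mice, so p-values measure only the spread between these samples.

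A developing T cell cuts and joins 1 V segment and 1 J segment on the DNA of an alpha allele, and RNA splicing then joins the rearranged V-J exon to the constant region. The V segment encodes most of the variable domain that contacts peptide and MHC, the J segment completes that domain, and Trac anchors the chain in the membrane beside the CD3 subunits. Because each clone keeps its own V segment, the counts on the Trav genes of a population describe how often each V segment is carried and transcribed. In bulk RNA, fewer cells that carry a segment and less RNA per cell cannot be told apart. Proximal V segments, nearest the J segments, tend to be joined first, and repeated rearrangement on the same allele can replace them with more distal ones. The mouse V array also holds large internal duplications, whose copies carry a d or an n in their names.

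All 189 members lie on the plus strand of chromosome 14 in GRCm38, as annotated by GENCODE M21. The 128 Trav genes span 1549.8 kb, chr14:52427928-53977678. They belong to 23 families, the number after Trav being the family, and 20 of them are annotated as pseudogenes. By name, 39 are d copies, 34 are n copies and 55 carry no suffix. The 60 Traj segments, of which 9 are annotated as pseudogenes, follow at chr14:54155005-54218842, and Trac (ENSMUSG00000076928.5) closes the locus at chr14:54220521-54224206. The exons of a Trav gene cover 155 to 595 bases (median 359), whereas a Traj segment is 29 to 72 bases long (median 61).

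The sequences of a few members show what the counts rest on. For the J segments, the Traj with a count of 2 in any library and the one used by invariant natural killer T cells are shown, with the codons of the conserved J motif (phenylalanine or tryptophan, glycine, any residue, glycine) in capitals. These and the following sequences were read from the GENCODE M21 transcripts on GRCm38, plus strand, and lie at chr14:54185358-54185414 (Traj33), chr14:54200777-54200842 (Traj18) and chr14:54206553-54206610 (Traj12).
Traj33: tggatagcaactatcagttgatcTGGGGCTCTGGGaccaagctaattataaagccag
Traj18: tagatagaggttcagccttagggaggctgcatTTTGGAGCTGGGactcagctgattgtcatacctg
Traj12: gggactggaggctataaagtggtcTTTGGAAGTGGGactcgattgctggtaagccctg

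For the V segments, 2 pairs of duplicated genes are shown by the last 60 bases of their V exons, because their annotated transcripts are the same apart from 1 base at an end. The capital marks the base that the annotation of the other copy does not include. Trav11 (chr14:53519800-53519859) ends 1 base later than Trav11d (chr14:52824853-52824912), and Trav7d-2 (chr14:52684413-52684472) ends 1 base later than Trav7-2 (chr14:53391083-53391142).
Trav11: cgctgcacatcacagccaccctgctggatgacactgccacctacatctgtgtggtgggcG
Trav11d: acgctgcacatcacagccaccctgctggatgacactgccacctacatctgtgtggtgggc
Trav7-2: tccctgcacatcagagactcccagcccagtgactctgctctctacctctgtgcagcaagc
Trav7d-2: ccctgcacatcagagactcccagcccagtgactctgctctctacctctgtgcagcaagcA

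Another pair, Trav13d-1 and Trav13n-1, differs by 1 base in the 279 bases of the V exon, G138A with Trav13d-1 as the reference and positions counted from 1 at the 5′ end of that exon. The 60 bases around it are shown with that base in capitals (chr14:52851695-52851754 and chr14:53162739-53162798), because the counts of these copies differed between groups in opposite directions.
Trav13d-1: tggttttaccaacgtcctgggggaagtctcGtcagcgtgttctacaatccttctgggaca
Trav13n-1: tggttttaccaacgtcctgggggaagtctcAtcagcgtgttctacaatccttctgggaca

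The libraries held 68292475 to 94347034 counts. Itgae had 36752, 47432 and 36561 counts in WT replicates 1, 2 and 3, and 4985, 4625 and 4622 in the CD103KO replicates. WT replicates 1 and 2 had Xist reads above 1 CPM and the other 4 libraries did not, so values of WT replicate 3 alone are given where they matter. The 6 markers of CD8 alpha beta T cells, Trac among them, summed to 5235 to 5457 CPM over all 6 libraries, with none at 0, whereas the 4 markers of CD4 T cells summed to 2.78 to 4.53 CPM. Markers of erythrocytes (4 genes, 32.6 to 49.2 CPM in WT and 57.0 to 92.0 CPM in CD103KO) and of B cells (6 genes, 25.0 to 28.3 and 30.3 to 35.3 CPM) summed higher in every CD103KO library. Most of the B cell sum was Cd79b, at 25.3 ± 2.10 and 25.5 ± 0.754 CPM, and the other 5 markers summed to 1.63 to 2.11 CPM in WT and 5.69 to 9.30 CPM in CD103KO. Of the 6, edgeR called 3 as higher (Cd79a, Fcer2a and Ms4a1, adjusted p = 0.00592, 0.00589 and 0.0268). The median log2 fold change of the 6 was 1.89, and 1.53 with a term for libraries with Xist reads. That term leaves WT replicate 3 as the only WT library set against CD103KO. The part of B cells and erythrocytes in the values below was not tested.

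The level of the constant region did not differ between the groups beyond the spread of replicates. Trac had 39673, 52225 and 45614 counts in the WT libraries and 41944, 36310 and 42223 in the CD103KO libraries. Scaled to library size, this gave 529.9, 545.5 and 573.8 CPM in WT and 571.3, 533.0 and 558.5 CPM in CD103KO. The groups overlapped, with the lowest and the highest of the 6 values both in WT. The means were 550 ± 22.3 and 554 ± 19.5 CPM (SD, n = 3 per group), and the log2 fold change of CD103KO against WT was 0.01 (SE 0.04, 95% interval -0.09 to 0.11, adjusted p = 0.959, edgeR). The direction turned under 3 of 15 alternatives, and the adjusted p stayed between 0.747 and 0.997 over them.

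V segment counts stood in a near constant ratio to those of the constant region. All Trav genes together had 16277, 21205 and 18620 counts in WT and 16899, 14836 and 16551 in CD103KO. Relative to Trac this was 41.0, 40.6 and 40.8 Trav counts per 100 Trac counts in WT, and 40.3, 40.9 and 39.2 in CD103KO. The mean was 40.8 ± 0.212 in WT and 40.1 ± 0.844 in CD103KO (n = 3 per group), and the groups overlapped (exact two-sided permutation p = 0.3, 1.0 after Benjamini-Hochberg adjustment over the 4 summary measures of the locus, where 0.1 is the smallest p that 3 against 3 libraries can give). With both expressed per kb of exon, Trav amounted to 94.4 ± 0.536 per 100 of Trac in WT and 92.7 ± 1.86 in CD103KO.

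**Figure D1:**
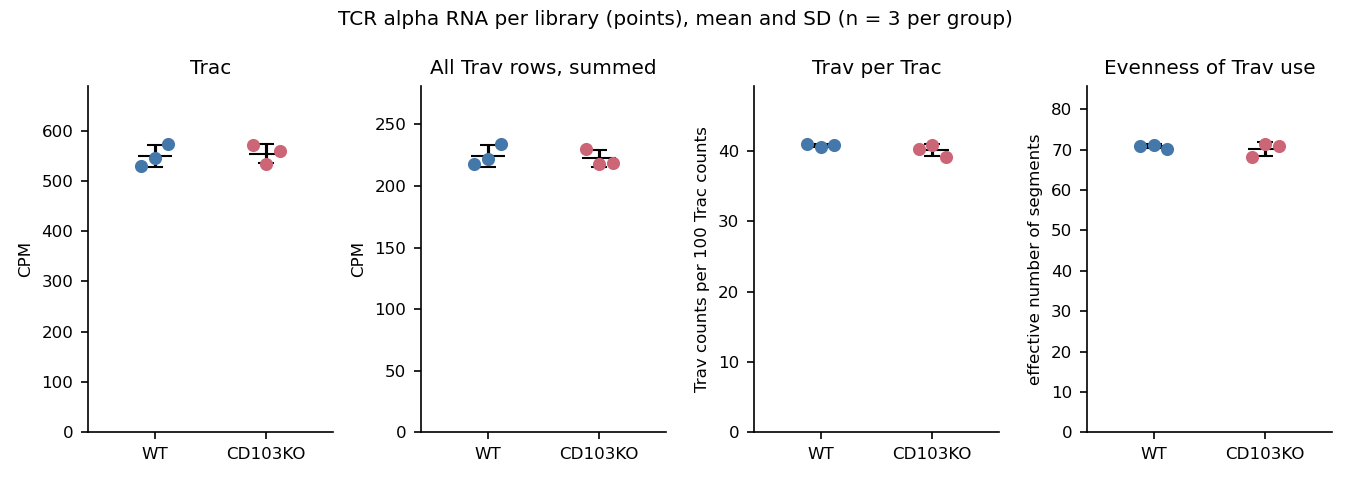
Each panel shows the 3 WT (blue) and 3 CD103KO (red) libraries as points with the group mean and SD in black, on axes that start at 0: Trac in CPM, all Trav genes summed in CPM, Trav counts per 100 Trac counts, and the effective number of Trav segments. In all panels the groups overlap, with Trac at 550 and 554 CPM and Trav at 40.8 and 40.1 counts per 100 Trac counts on average.

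The J segments were nearly absent from the counts. Of the 60 Traj genes, 56 had 0 counts in all 6 libraries. The other 4 had 6 counts in all: 2 for Traj33, 2 for Traj12 and 1 for Traj15, all in WT replicate 2, and 1 for Traj37 in CD103KO replicate 3. Every productive alpha transcript contains a J segment, and the Trac counts of the same libraries were 36310 to 52225, so that J use cannot be read from the Traj counts. Per 100 Trac counts, Traj amounted to 0.00319 ± 0.00553 (WT) and 0.000789 ± 0.00137 (CD103KO), with an exact two-sided permutation p of 1.0. No Traj passed the filter on low counts, and why the counts are so low was not tested.

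Most Trav genes had counts, and none dominated. A mean of at least 10 counts was reached by 100 of them. Counts alone do not show that a given copy was used, because reads may be divided among near-identical copies. Between 106 and 111 of the 128 Trav genes had counts in a library, and 11 had none in any. Of these 11, 8 are annotated pseudogenes, and the other 3 are Trav11, Trav12d-3 and Trav15n-1, each a close copy of a segment that did have counts. The 20 pseudogenes together held 0.381% of Trav counts in WT and 0.342% in CD103KO. With the share of each gene among all Trav counts of its library as the measure, 38 Trav had a mean share of at least 1% and together held 72.8% of Trav counts. The effective number of segments, the exponential of the Shannon entropy of the shares, is the number of equally used segments that would give the same evenness. It was 70.9, 71.2 and 70.2 in WT and 68.1, 71.4 and 70.8 in CD103KO. The means of 70.8 ± 0.487 and 70.1 ± 1.78 did not differ beyond the replicate spread (exact two-sided permutation p = 0.8). CD103KO replicate 1 had the lowest value of all 6 libraries. This number counts each Trav gene as its own segment, including near-identical copies with equal counts, so it is not a number of distinct sequences. With near-identical copies summed, as grouped below, the effective number of groups was 45.9 ± 0.565 in WT and 45.3 ± 0.792 in CD103KO. These values also overlapped between WT and CD103KO.

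Trav16 took the largest share, and the 10 leading genes together held 30.2 ± 0.226% of Trav counts in WT and 30.5 ± 1.22% in CD103KO. Trav16 (chr14:53743104-53743705, 477.4 kb upstream of Trac) held 4.34, 4.22 and 4.58% in WT and 4.69, 4.01 and 4.24% in CD103KO, with means of 4.38 ± 0.182% and 4.31 ± 0.344%. The CD103KO libraries lay on both sides of the WT range. Trav16n, its n copy, held 3.57, 3.51 and 3.58% in WT and 4.22, 3.56 and 4.09% in CD103KO. Here 2 of the 3 CD103KO libraries stood above all WT libraries and 1 lay within their range, and the log2 fold change was 0.14 (SE 0.09, adjusted p = 0.705, edgeR). Together with Trav16d-dv11 these genes form 1 group of copies with V exons at least 98% identical, which held 8.86 ± 0.249% in WT and 9.13 ± 0.677% in CD103KO.

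Trav12-2, next in rank, held 3.36, 3.46 and 2.99% in WT and 3.76, 3.48 and 3.52% in CD103KO. All 3 CD103KO shares were above the WT shares, with WT replicate 2 and CD103KO replicate 2 close to each other. Trav3-3 followed at 2.88 ± 0.200% in WT and 3.00 ± 0.276% in CD103KO, and Trav6-7-dv9, one of 10 Trav whose names mark joint use with the delta chain, at 2.89 ± 0.0432% and 2.84 ± 0.252%. The 10 genes with such names together held 8.43% of Trav counts in WT and 8.41% in CD103KO. Trav14d-1 and Trav14n-1 each held 2.88 ± 0.167% and 2.86 ± 0.101%, with equal counts in every library, and their annotated transcripts of 415 bases are identical. Trav3d-3 and Trav3n-3 were likewise equal, at 2.43 ± 0.102% and 2.34 ± 0.0404% each. Trav12n-3 held 2.64 ± 0.211% in WT and 2.39 ± 0.181% in CD103KO, with overlapping groups. Per kb of exon, the order of the first 3 stayed Trav16, Trav16n and Trav12-2.

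**Figure D2:**
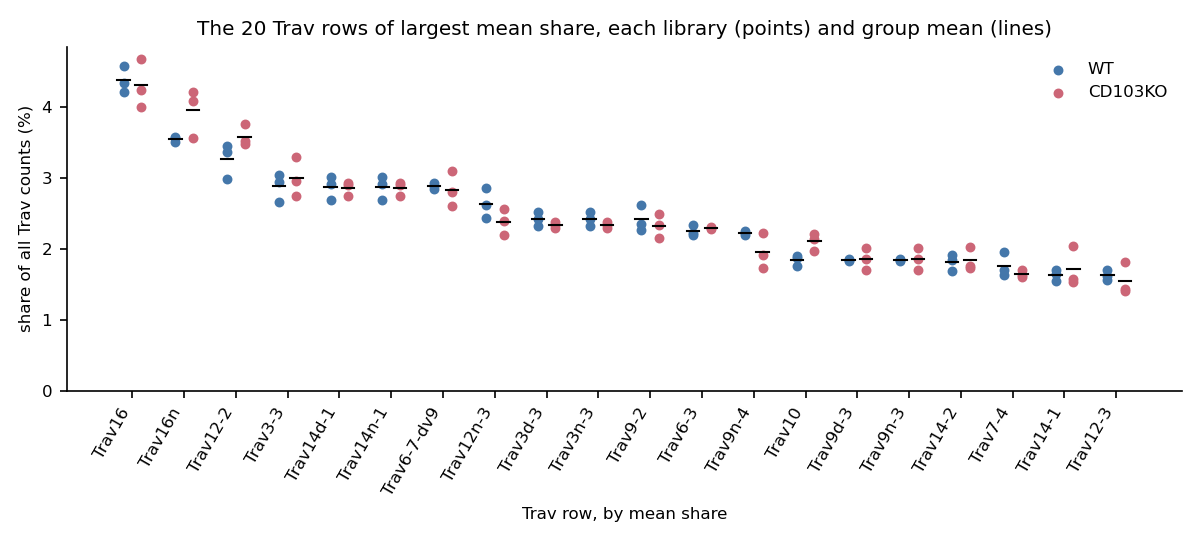
The share of each of the 20 leading Trav genes among all Trav counts (vertical axis, %, from 0) is shown for each WT (blue) and CD103KO (red) library as a point, with group means as black lines. Shares fall from 4.38% for Trav16 in WT with no single leading segment, and for most genes the WT and CD103KO points overlap, whereas Trav12-2 and Trav10 have all CD103KO points above the WT points.

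Along the array, segments nearer the J cluster carried more of the counts in both groups, as these counts were divided among copies. The 64 Trav nearest the J segments, by rank of start position, held 65.5, 65.7 and 65.02% of Trav counts in WT and 67.7, 64.4 and 64.6% in CD103KO. CD103KO replicate 1 was the highest and the other CD103KO libraries the lowest, and the means of 65.4 ± 0.357% and 65.6 ± 1.86% did not differ beyond the spread (exact two-sided permutation p = 1.0). WT replicate 3 alone, at 65.02%, lay inside the CD103KO range. With the genes divided by position into 3 classes of near equal number, the proximal, middle and distal ones held 42.6, 34.5 and 23.0% in WT and 42.9, 34.2 and 22.9% in CD103KO. The 55 genes without suffix held 50.7% in WT and 51.2% in CD103KO, the n copies 27.0 and 26.8%, and the d copies 22.3 and 22.0%. Near-identical copies can lie in different classes, as do Trav7d-2 (rank 9 from the distal end) and Trav7-2 (rank 82). The shares by position and by suffix thus depend on how reads were divided among copies, which was not tested. Single segments did not follow the gradient closely: across the 128 Trav the Spearman correlation of mean share with position rank was 0.154, over genes that share libraries and are not replicates.

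**Figure D3:**
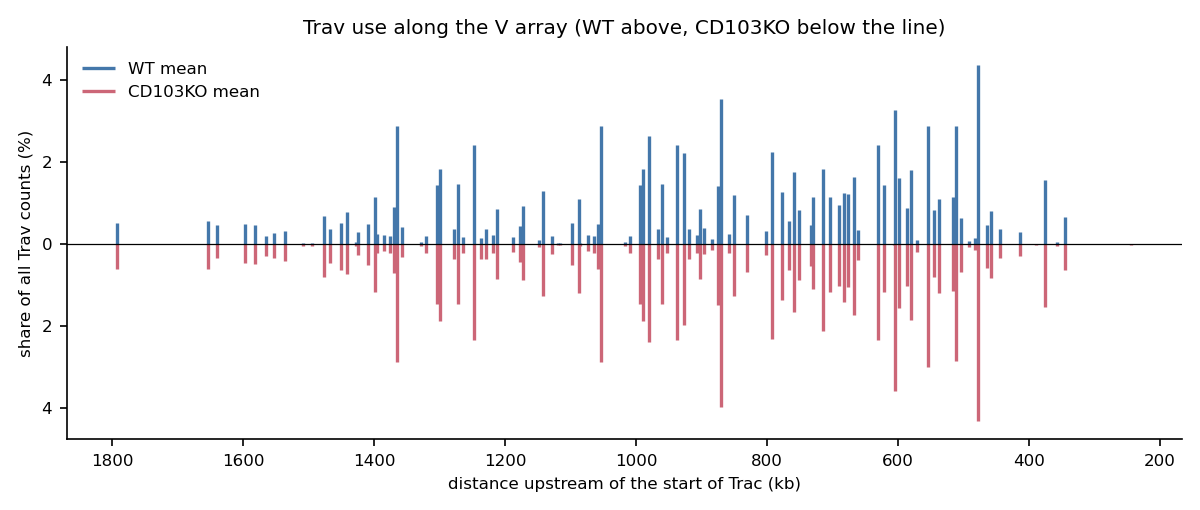
Vertical lines show the mean share of each Trav gene among all Trav counts (%, WT upward in blue, CD103KO downward in red) at its distance upstream of the start of Trac in kb, so that the J-proximal end is at the right. The tall lines stand at the same positions above and below, and the 64 proximal genes hold 65.4% of WT and 65.6% of CD103KO counts. These shares depend on how reads were divided among near-identical copies.

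The duplicated copies limit which single segments can be read. Grouping Trav whose V exons are at least 98% identical gave 88 groups, of which 34 hold 2 or more genes. These 34 contain 74 Trav and 63.7% of Trav counts. Of the 45 pairs at that identity, 16 had counts equal within 0.01 in every library, and in 4 pairs 1 copy had 0 counts in all. Of the Trav values, 58.2% lay more than 0.01 from a whole number, as can occur in estimates that divide a read among genes.

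Trav7-2 and Trav7d-2, whose printed ends show the single-base difference, changed places between libraries. Trav7-2 had 0, 256 and 169 counts in WT and 156, 166 and 0 in CD103KO, while Trav7d-2 had 165, 0 and 0 in WT and 0, 0 and 199 in CD103KO. In each library 1 copy held all counts, Trav7d-2 in WT replicate 1 and CD103KO replicate 3 and Trav7-2 in the other 4. Their sum was 1.01, 1.21 and 0.908% of Trav counts in WT and 0.923, 1.12 and 1.20% in CD103KO, means of 1.04 ± 0.152% and 1.08 ± 0.143%. Trav7n-6 did the same with C920008G01Rik, an annotated V gene of the array whose symbol does not begin with Trav and which is not among the 189 members. Trav7n-6 had 102.7, 113.8 and 0 counts in WT and 0, 0 and 121.7 in CD103KO, where C920008G01Rik had 0, 0.04 and 104.4 in WT and 84.5, 95 and 0 in CD103KO. Their transcripts are 381 and 380 bases long and the same apart from 1 base, and their summed counts of 84.5 to 121.7 overlapped between groups. The fitted log2 fold changes of Trav7n-6 and Trav7-2 had wide errors, at -0.65 (SE 1.44) and -0.10 (SE 1.19).

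**Figure D4:**
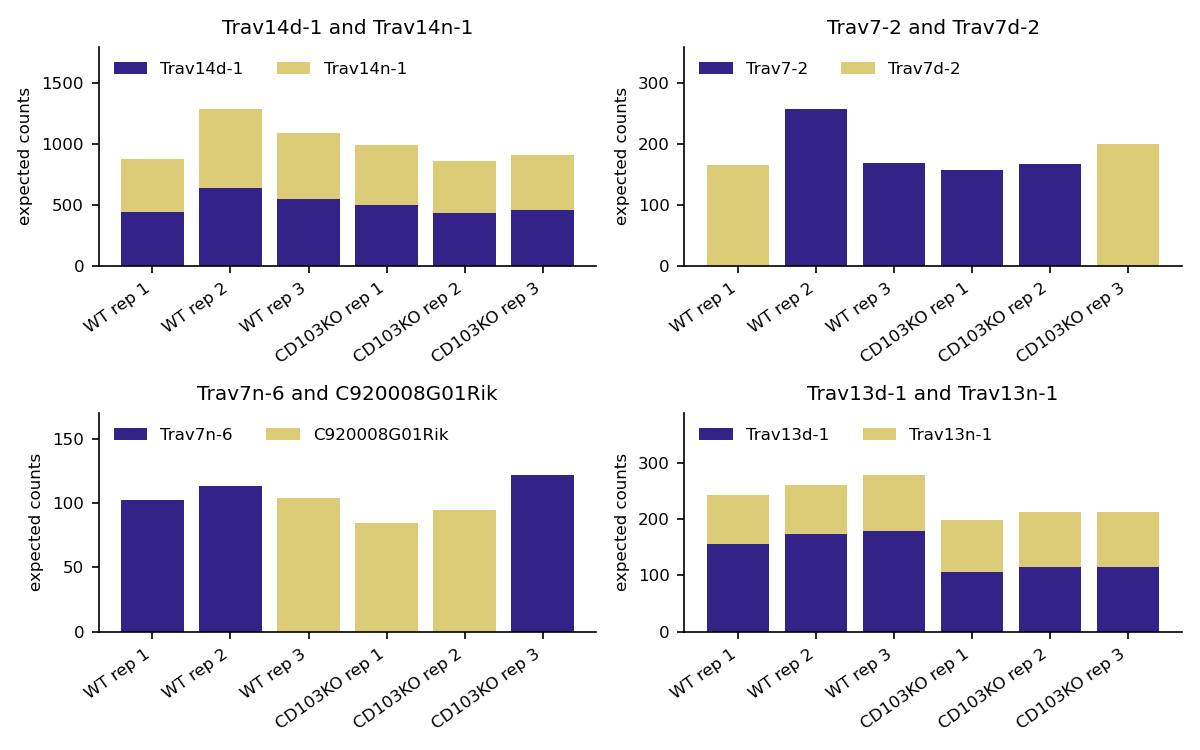
Stacked bars give the expected counts (vertical axes from 0) of 2 near-identical V genes in each library, 1 panel per pair. Trav14d-1 and Trav14n-1 are equal in every library, Trav7-2 and Trav7d-2, and Trav7n-6 and C920008G01Rik, change places between libraries, and the Trav13d-1 part of its pair is 105.6 to 114.9 counts in CD103KO against 156.9 to 178.2 in WT.

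No V segment passed the test between groups. After the filter on low counts, 99 Trav and Trac were tested in the fit of 13470 genes. Of all genes 0.223% were called at an adjusted p under 0.05, and of the 100 members 0 were (edgeR; 0 by DESeq2 and 0 by limma-voom). At an unadjusted p under 0.05 stood 4 members, 3 lower and 1 higher, or 4.0% against 8.73% of all genes (3 with DESeq2). The CPM of the groups did not overlap for 7.0% of the members and for 14.2% of all genes. The fold changes centred near 0, with 42 Trav above and 57 below it and a median log2 of -0.03, beside 0.00 over all tested genes. The size that could be seen differed between segments, with a median SE of 0.19, and 0.08 for Trav12-2 and 1.44 for Trav7n-6. A difference as large as the SE would not pass, since Trav4-3 did not at -0.34 (SE 0.11).

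The segments with the smallest p were Trav4-3, Trav13d-1, Trav9d-4 and Trav15d-1-dv6d-1, and none of them passed. Trav4-3 held 1.55, 1.39 and 1.39% of Trav counts in WT and 1.06, 1.252 and 1.148% in CD103KO. Every CD103KO library was below every WT library, and the log2 fold change was -0.34 (SE 0.11, adjusted p = 0.449, edgeR). Trav15d-1-dv6d-1 had 71, 82 and 84 counts in WT and 50, 42 and 57 in CD103KO, and the fitted log2 difference was -0.48 (SE 0.21, adjusted p = 0.568, edgeR). Trav15d-1-dv6d-1 shares an identical annotated transcript of 349 bases with Trav15n-1, which had 0 counts in all libraries. All annotated exons of these genes cover 418 and 352 bases, so the annotations are not the same throughout. Trav9d-4 had 16.03, 20.7 and 49.9 counts in WT and 89.4, 34.9 and 50.1 in CD103KO, so that WT replicate 3 lay within the CD103KO range and CD103KO replicate 1 stood apart. The log2 difference was 1.17 (SE 0.49, adjusted p = 0.541, edgeR), and it was 0.34 with a term for libraries with Xist reads, 0.74 without CD103KO replicate 1 and 1.87 without WT replicate 3. Of the next segments, the log2 difference was -0.26 for Trav13-1 (adjusted p = 0.581), 0.18 for Trav10 (0.663) and 0.62 for Trav15-2-dv6-2 (0.685).

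Trav13d-1 and Trav13n-1, the copies whose V exons differ by G138A, stood in opposite directions. All annotated exons of these genes cover 396 and 331 bases, so the annotations also differ outside the V exon. How reads were divided between the copies was not tested. Trav13d-1 held 0.964, 0.821 and 0.957% in WT and 0.625, 0.770 and 0.694% in CD103KO, and its log2 fold change was -0.41 (SE 0.15, adjusted p = 0.492, edgeR). Trav13n-1 held 0.525, 0.411 and 0.535% in WT and 0.555, 0.664 and 0.591% in CD103KO, and its log2 difference was 0.28 (SE 0.19, adjusted p = 0.709, edgeR). In neither did the groups overlap. Summed, the copies held 1.49, 1.23 and 1.49% in WT and 1.181, 1.43 and 1.29% in CD103KO, and these sums did overlap (exact two-sided permutation p = 0.3).

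As shares of Trav counts, 10 of the 100 Trav with a mean of at least 10 counts (10%) did not overlap between groups, below the 14.2% of all tested genes whose CPM did not overlap. Of these, 5 were higher and 5 lower in CD103KO, each at an exact two-sided permutation p of 0.1, which no segment could go below. Trav12-2, Trav10, Trav12-1 and Trav6n-6 were the higher ones with a mean share of at least 1%, at 3.27, 1.84, 1.252 and 1.11% in WT and 3.59, 2.11, 1.40 and 1.177% in CD103KO. The lower ones were Trav4-3 and Trav13-1, at 1.44 and 1.22% in WT and 1.154 and 1.03% in CD103KO. By groups of copies, chosen as a unit after seeing the data, 6 of 71 did not overlap, Trav10 no longer among them, and by families 0 of 19.

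Sums over a family do not depend on how reads were divided among copies within it. Trav14 held 15.5 ± 0.380% of Trav counts in WT and 15.5 ± 0.332% in CD103KO, Trav6 13.5 ± 0.109% and 13.6 ± 0.0845%, Trav12 12.1 ± 0.369% and 12.2 ± 0.150%, Trav9 9.94 ± 0.265% and 9.81 ± 0.263%, and Trav16 8.86 ± 0.249% and 9.13 ± 0.677%. In each of these 5 the groups overlapped. The Trav7 sum does depend on that division, because C920008G01Rik, outside the family, held counts equal to 0.560% of Trav counts in WT replicate 3 and 0.5002 and 0.640% in CD103KO replicates 1 and 2. With that gene included in the family and in the total, Trav7 held 8.35 ± 0.285% in WT and 8.67 ± 0.552% in CD103KO, beside 8.18 ± 0.583% and 8.32 ± 0.734% without it, and the groups overlapped either way. Of 19 families tested, 0 were called and 0 had an unadjusted p under 0.05 (edgeR), beside 0.223% and 8.73% of all genes tested. For the 5 largest, the 95% interval of the log2 fold change reached at most 0.22 in either direction, whereas for Trav11, the smallest tested, it ran from -0.96 to 0.30.

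**Figure D5:**
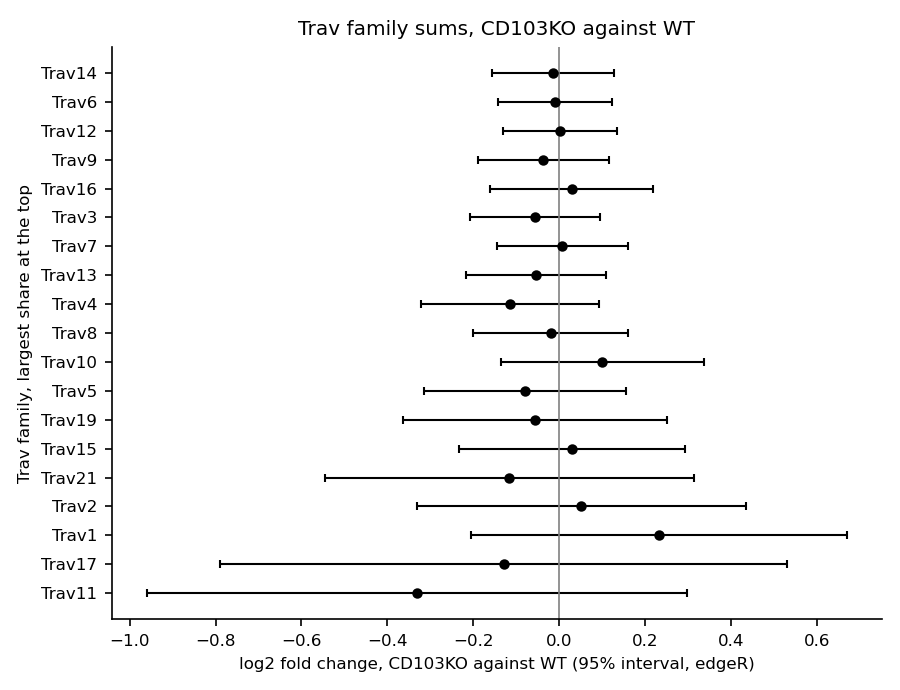
Points give the log2 fold change of each Trav family sum in CD103KO against WT (horizontal axis) and bars its 95% interval from edgeR, with families ordered by share from the top. All 19 intervals include 0. They tend to be wider for families of small share, such as Trav17 and Trav11 (0.302% in WT), than for large ones, such as Trav14 (15.5% of Trav counts).

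The range of differences between whole profiles of the groups overlapped the ranges within them. The share of Trav counts that would have to move to another segment to turn one library's profile into another's was 4.93 to 6.13% between WT libraries, 6.92 to 7.25% between CD103KO libraries and 4.87 to 7.56% between a WT and a CD103KO library. By families it was 1.94 to 2.76%, 2.28 to 2.96% and 1.51 to 2.77%. The variance of shares within groups was 1.65 times that of counting alone in the median of 100 segments. It was 2.3 times in the median of 71 groups of copies and 1.59 times in that of 19 families. Over the 128 Trav, the mean shares of WT and CD103KO had a Pearson correlation of 0.995, a description over genes whose libraries share 1 sequence annotation.

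The V segments that invariant T cells use had small shares in both groups, as far as the copies can be read. Invariant natural killer T cells join Trav11 to Traj18, and mucosal-associated invariant T cells join Trav1 to Traj33. Trav11d had 30, 64 and 55 counts in WT and 37, 30 and 32 in CD103KO, and Trav11, which differs from it in the annotation by the 1 end base shown, had 0 in all. A count of 0 allows up to 0.0141 to 0.0202% of Trav counts (3 counts, counting error only), but the 342 bases of Trav11d are all contained in Trav11, so the 0 says nothing of its use. Trav11 and Trav11d together held 0.184, 0.302 and 0.295% in WT and 0.219, 0.202 and 0.193% in CD103KO, overlapping groups with means of 0.261 ± 0.0661% and 0.205 ± 0.0130%. Trav1 had 81, 97 and 107 counts in WT and 95, 83 and 116 in CD103KO, and the log2 difference was 0.24 (SE 0.19, adjusted p = 0.759, edgeR). Traj18 was at 0 in all libraries and Traj33 at 2 counts in WT replicate 2, which, as for the other J segments, gives no measure of their use. Zbtb16, the transcription factor that defines these lineages, was at 0.0136 to 0.0935 CPM. Counts on Trav11d and Trav1 do not count invariant cells, because ordinary clones can carry the same V segments.

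The partners of the alpha chain did not pass the test either. Of 36 listed genes of the receptor complex and of V-J recombination, 33 were tested and 0 were called (edgeR, and 0 by DESeq2), with 3 at an unadjusted p under 0.05 and a median log2 fold change of 0.02. Of all genes tested, 0.223% were called and 8.73% stood at an unadjusted p under 0.05. The beta chain constant regions were at 363 ± 4.24 and 373 ± 9.02 CPM (Trbc1) and at 821 ± 26.0 and 839 ± 11.5 CPM (Trbc2) in WT and CD103KO. Of the CD3 chains, which carry the receptor's signal, Cd3e was at 407 and 414 CPM, Cd3d at 593 and 599 CPM and Cd247 at 376 and 382 CPM. Cd3g was at 734.3, 721.3 and 763.9 CPM in WT and 781.0, 801.9 and 795.1 CPM in CD103KO, without overlap, but the log2 difference, 0.10 (SE 0.04, adjusted p = 0.497, edgeR), did not pass. The coreceptor chains did not pass, with Cd8a at 1452 ± 13.4 and 1479 ± 24.9 CPM in overlapping groups (adjusted p = 0.859, edgeR) and Cd8b1 at 1722 ± 55.6 and 1726 ± 31.4 CPM (0.985).

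Trdc, the delta chain constant region that lies inside the alpha locus between the V array and the J cluster, was at 8.15, 7.98 and 8.05 CPM in WT and 7.93, 7.003 and 7.47 CPM in CD103KO. The groups did not overlap, and the log2 difference, -0.11 (SE 0.08, adjusted p = 0.718, edgeR), did not pass. Among the gamma chain constant regions, Tcrg-C4 had the lowest unadjusted p, at 0.657 ± 0.168 and 0.381 ± 0.0980 CPM (log2 fold change -0.78, SE 0.31, adjusted p = 0.518, edgeR). Of the recombination genes, Lig4, the ligase that joins the cut ends, differed by 0.19 on the log2 scale (adjusted p = 0.551), and Dntt, which adds bases at the joints, was at 12.3 ± 0.989 and 11.7 ± 1.10 CPM. Rag1 and Rag2, whose products cut the DNA, were at most 0.352 and 0.0440 CPM in any library, and Ptcra, the partner of the beta chain before alpha rearrangement, had counts in WT replicate 1 alone. These 3 did not pass the filter.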

How the data were processed

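The authors deposited 1 table that lists expected counts, RSEM's unnormalized estimates of reads per gene, which can be fractions. The tools, per the submitters' processing notes, were RSEM, STAR 2.7.0f, cutadapt 1.18 and bcl2fastq 2.20. No version of RSEM, read length, strand setting or handling of reads with several alignments is stated in the labels. All 55450 gene IDs matched GENCODE M21 on GRCm38, which gave coordinates and sequences. Members and lists were chosen with earlier results of these data known.

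Rounded counts were fitted in R 4.3.3 with edgeR 4.0.16 (TMM, quasi-likelihood test on group alone, genes kept by filterByExpr at minimum count 10), with Benjamini-Hochberg adjustment over 13470 genes at 0.05, and tested on simulated data. CPM use TMM-scaled library sizes. Shares used unrounded counts, and only Trav with a mean of 10 or more counts were compared. Exact permutation tests used SciPy 1.17.1, V exons were aligned with edlib 1.3.9.post1, and plots were drawn with matplotlib 3.10.9. Alternatives, DESeq2 1.42.0 and limma-voom (limma 3.58.1) among them, are given in the closing section.

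Genes named by rule were Trac, the 10 Trav of largest share, the Traj with counts, the 4 rising and 4 falling Trav of smallest p, the segments of invariant T cells, the Trav of at least 1% whose shares did not overlap, the 5 largest families, and the receptor chains, Ptcra, Rag1, Rag2 and Dntt. Trav7-2, Trav7d-2, Trav7n-6, C920008G01Rik, Trav13n-1, Trav12d-3, Trav15n-1, Trav16d-dv11, Lig4, Zbtb16, Cd79a, Cd79b, Fcer2a, Ms4a1, Itgae and Xist were named after their values were seen or as checks.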

Additional observations from a re-analysis of the deposited data

How the results depend on the processing

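No member, family or listed receptor gene was called under any alternative fit run: RLE or upper-quartile factors, no filter, 1 CPM in at least 3 libraries, DESeq2, limma-voom, unrounded counts, the replicate block, a term for libraries with Xist reads, and each library left out. The log2 fold change of Trac turned to -0.0499 with the Xist term and ran from -0.0143 to 0.0434 with 1 library left out, below 0 without WT replicate 1 or CD103KO replicate 1. The count of Trav whose shares did not overlap was 10 of 100; it was 0 with families, 6 with copy groups, 45 with WT replicate 3 as the only WT library, and 16 to 26 with 1 library left out, since fewer libraries overlap less often. Traj scaled to library totals (CPM without TMM) differed by -0.0133. Same-numbered libraries did not deviate together over all tested genes (correlations -0.279, -0.0339 and 0.033), so the numbers are not taken as pairs; with the replicate block, 0 members were called, 3 stood at an unadjusted p under 0.05, and Trac was at 0.01 (adjusted p = 0.972, edgeR). At 3 libraries a group, the median SE of 0.19 limits single segments, and 63.7% of Trav counts lie in groups of copies with V exons at least 98% identical, whose separation by the reads was not tested.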
